A study of Homo sapiens with 4 samples.

Results

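The genes described here encode proteins that hepatocytes secrete into blood plasma, and they were followed in MHCC97H cells in which UBXN1, a ubiquitin-binding cofactor of the ATPase p97/VCP, was knocked down. The 44 genes were taken by name from the 61541 gene rows of the deposited table, after Ensembl identifiers were matched to symbols, and they fell into 15 carriers and other secreted proteins, 16 coagulation genes, 7 acute-phase genes and 6 serpin protease inhibitor genes. MHCC97H is an established human hepatocellular carcinoma (HCC) line. One group carried a control shRNA (shCon, which the study's methods name shRFP) and the other an shRNA against UBXN1 (shUBXN1), both delivered by lentivirus from pLKO.1, with 2 RNA-seq libraries of total RNA each. The labels give no other genotype or treatment that separates the groups. Both were the same line, and which of the UBXN1 shRNAs was used for sequencing was not stated in the sources used here. The labels do not say whether the 2 libraries of a group came from separate cultures, so p-values measure the spread between these libraries, which may be technical.

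The liver makes most plasma proteins. Albumin and transferrin carry small molecules and iron, fibrinogen and the clotting factors circulate until a vessel is injured, and serpins hold proteases in check by trapping them. Hepatocyte transcription factors of the HNF4 and C/EBP families drive these genes, and interleukin-6 acting through STAT3 raises the acute-phase members in inflammation. Fibrinogen is assembled from the products of FGA, FGB and FGG, which lie together on chromosome 4.

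Total expected counts ranged from 23373700 to 27380508 per library, and 16863 genes were tested. UBXN1 had 67.1 and 77.3 CPM (counts scaled to a library of fixed size, on TMM-scaled library sizes) in shCon and 16.8 and 18.5 CPM in shUBXN1, a log2 fold change of -2.03 (SE 0.0963, adjusted p = 9.98e-10, edgeR's quasi-likelihood test), and was lower in both libraries labelled as knockdown. All fold changes compare shUBXN1 with shCon, and adjusted p-values are Benjamini-Hochberg values over all genes tested. The epithelial keratin genes KRT8 and KRT18 led a hepatic epithelial marker list. Its summed TPM (a level per length, scaled to a fixed sum) was 5330 and 5380 in shCon and 4590 and 5007 in shUBXN1. KRT8 was lower in shUBXN1 (log2 fold change -0.44, adjusted p = 0.00185, edgeR) and KRT18 higher (0.31, adjusted p = 0.0116, edgeR). EPCAM, with 10 and 14 counts in shCon and 19 and 19 in shUBXN1, did not pass the test. GPC3, an HCC marker, was listed at 0. The 4 leukocyte markers summed to 0.998 and 0.932 TPM in shCon and 0.240 and 0.286 TPM in shUBXN1, with CD3E at 0 in all libraries. The 4 fibroblast or stellate markers summed to 0.926 and 0.897 TPM in shCon and 1.12 and 1.02 TPM in shUBXN1, within which COL1A1 was higher (0.375 and 0.170 CPM against 2.34 and 2.52) and DCN lower (0.638 and 0.553 CPM against 0.0808 and 0.0427). The 3 endothelial markers summed to 15.1 TPM in both shCon libraries and to 31.6 and 31.9 TPM in shUBXN1. Of these, KDR rose 3.45-fold (adjusted p = 5.19e-09, edgeR) and PECAM1 1.28-fold (adjusted p = 0.00209, edgeR), while CDH5 had 3 and 6 counts in shCon and 0 in both shUBXN1 libraries. Mitochondrial counts were 5.28% and 5.59% of the total in shCon and 7.43% and 8.27% in shUBXN1. The part of these differences in the results was not tested. In bulk RNA, fewer cells expressing a gene and less RNA per cell cannot be told apart.

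The promoters of 6 genes are printed because they belong to members with large differences between the groups: the 3 fibrinogen genes and ALB, which were lower in shUBXN1, and SERPINA3 and VTN, which were higher. They are RefSeq sequences of GRCh38.p14, from 250 bases before to 50 bases after the start annotated in RefSeq, 5′ to 3′ on the strand of the gene. That start can differ from the GENCODE span given for a gene below. The windows of ALB, FGG and VTN lie inside that span. Capitals mark every match, on either strand, to 4 motifs. The letters searched were TTGCNNAA for C/EBP, CAAAGTCCA for HNF4, TTCNNNGAA for STAT and TATAAA for the box of that name found near many starts, where N is any base.
FGA, chr4:154590693-154590992, minus strand: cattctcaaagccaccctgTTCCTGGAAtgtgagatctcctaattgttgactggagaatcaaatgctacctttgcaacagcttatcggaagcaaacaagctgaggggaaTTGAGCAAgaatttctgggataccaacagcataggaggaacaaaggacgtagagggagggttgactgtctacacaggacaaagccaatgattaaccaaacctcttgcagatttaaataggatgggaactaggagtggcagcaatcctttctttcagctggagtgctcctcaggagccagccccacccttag
FGB, chr4:154562730-154563029, plus strand: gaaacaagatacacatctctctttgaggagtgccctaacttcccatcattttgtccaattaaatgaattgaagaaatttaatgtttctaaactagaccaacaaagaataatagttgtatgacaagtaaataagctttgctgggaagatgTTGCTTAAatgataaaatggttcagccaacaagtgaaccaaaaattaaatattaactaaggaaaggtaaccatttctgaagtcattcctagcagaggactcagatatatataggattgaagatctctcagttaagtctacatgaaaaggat
FGG, chr4:154612607-154612906, minus strand: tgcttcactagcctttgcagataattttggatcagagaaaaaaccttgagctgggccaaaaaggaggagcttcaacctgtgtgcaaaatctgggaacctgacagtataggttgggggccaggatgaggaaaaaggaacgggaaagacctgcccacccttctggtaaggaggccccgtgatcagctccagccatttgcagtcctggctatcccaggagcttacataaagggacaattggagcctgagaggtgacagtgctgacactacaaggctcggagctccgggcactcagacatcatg
ALB, chr4:73404037-73404336, plus strand: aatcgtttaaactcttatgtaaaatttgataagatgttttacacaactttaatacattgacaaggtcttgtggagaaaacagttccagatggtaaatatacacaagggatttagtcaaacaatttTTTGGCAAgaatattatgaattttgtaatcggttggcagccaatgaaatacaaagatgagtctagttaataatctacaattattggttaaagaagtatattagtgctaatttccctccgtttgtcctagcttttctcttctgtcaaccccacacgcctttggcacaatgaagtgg
SERPINA3, chr14:94612141-94612440, plus strand: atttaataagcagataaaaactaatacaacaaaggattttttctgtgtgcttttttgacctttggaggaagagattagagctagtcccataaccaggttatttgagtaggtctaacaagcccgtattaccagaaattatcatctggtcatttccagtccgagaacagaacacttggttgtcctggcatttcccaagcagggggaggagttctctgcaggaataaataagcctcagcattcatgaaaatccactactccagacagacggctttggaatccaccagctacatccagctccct
VTN, chr17:28370258-28370557, minus strand: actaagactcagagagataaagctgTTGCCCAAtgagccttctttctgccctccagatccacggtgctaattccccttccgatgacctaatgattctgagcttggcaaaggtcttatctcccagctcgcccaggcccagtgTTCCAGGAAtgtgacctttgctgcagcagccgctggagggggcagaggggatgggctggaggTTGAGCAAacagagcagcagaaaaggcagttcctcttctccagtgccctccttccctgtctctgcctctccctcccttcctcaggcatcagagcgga

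The capitals in FGA fall, from the 5′ end, on a STAT match at -231 to -223 and a C/EBP match at -141 to -134, with the start base counted as 0. FGB and ALB hold a C/EBP match each, at -101 to -94 and at -125 to -118. VTN holds 2 C/EBP matches with a STAT match between them, at -109 to -101. FGG and SERPINA3 have no match in this window. No printed match overlaps another. None of these is shown to be a binding site.

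Promoters were found for 34 of the 44 members. Those of TTR, CP, GC, HP, ORM2, SAA1, SAA2, SERPINC1, SERPINF1 and SERPINF2 were not searched. The C/EBP motif was in 8 of the 34 (23.5%) and in 10.5% of all 35116 promoters of the same length. It occurred in genes that were lower in shUBXN1 (ALB, FGA and FGB), in genes that were higher (HPX and VTN) and in genes that did not pass the test (AFP, AHSG and KNG1). The STAT motif was in 11 of the 34 (32.4%) and in 7.66% of all promoters, with 3 of the 11 in members that were higher (AGT, F10 and VTN) and 3 in members that were lower (FGA, RBP4 and SERPIND1). The HNF4 motif was in F10 and AHSG (5.88%, against 0.384% of all promoters). TATAAA was in 8 members (23.5%, against 11.5%). These shares describe letters in a window and were not tested.

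Counts were high enough to test 30 of the 44 genes and too low for the other 14. Among these 30, 13 were lower (43.3%) and 8 higher (26.7%) at an adjusted p under 0.05 in edgeR's quasi-likelihood test, where 28.2% of all genes tested were lower and 28% higher. With the thresholds the study states, a fold change of at least 2 and an unadjusted p under 0.05, 11 were lower (36.7%) and 7 higher (23.3%), against 6.09% lower and 11.8% higher among all genes tested. The median log2 fold change was -0.41 over the tested members and 0.016 over all genes tested. CPM of the groups did not overlap in 27 of the 30 members, and in 78.0% of all genes tested. These counts leave out members too low to test. TTR, FGG, F7 and SERPIND1 passed the filter only through their shCon libraries, and HPX and VTN only through their shUBXN1 libraries, so these 6 had to differ. Their values are given as a description, without a p. The other 24 members had at least 1 library above the filter's cutoff in each group, called here past the filter in both groups. In FGB, KNG1, ORM1 and ORM2 this was only 1 shUBXN1 library, and in F10 only 1 shCon library. The filter needs 2 libraries, so these too met it through their higher group, which limits their tests. Their p-values are given with this limit, and the counts that follow include these members. Of the 24, 10 fell (41.7%) and 6 rose (25.0%) by adjusted p, against 29% lower and 26.3% higher of the 15935 genes chosen the same way. By the 2-fold rule 7 were lower (29.2%) and 5 higher (20.8%), against 5.55% and 8.87%. The median of the 24 was -0.33.

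**Figure D1:**
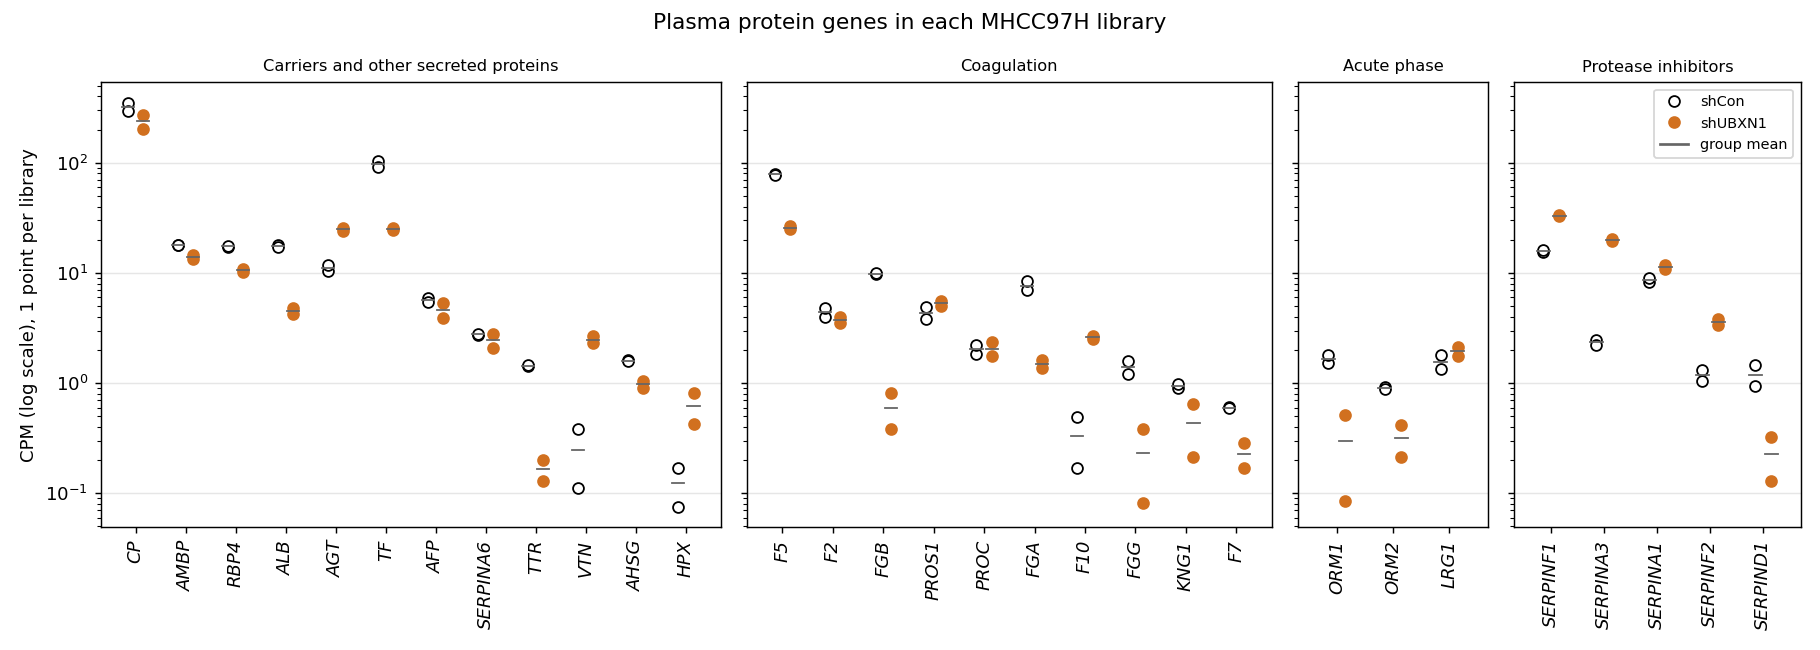
CPM on a log axis of the 30 tested members, with 1 point per library (open, shCon; filled, shUBXN1) and a line at each group mean, in 4 panels by role. FGB, FGA, ALB, TF and F5 sit lower in both shUBXN1 libraries, and SERPINA3, SERPINF1, AGT, F10 and VTN higher.

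The 44 genes together summed to 353 and 322 TPM in shCon and to 331 and 275 TPM in shUBXN1. On the deposited lengths, the second shCon library thus lay below the first shUBXN1 library. The file gives TF 20166 bases, so TF adds only 10.4 and 9.05 TPM in shCon on 103 and 92.4 CPM. Whether the sums overlap at another TF length was not tested. CP alone made up 45.6% and 40.8% of this sum in shCon and 39.99% and 33.3% in shUBXN1. By role, the sums moved apart. Coagulation genes summed to 44.3 and 45.3 TPM in shCon against 24.8 and 21.9 in shUBXN1, and acute-phase genes to 8.17 and 8.36 against 4.49 and 2.46. Carriers summed to 264 and 230 TPM against 206 and 161. The 6 serpins listed as protease inhibitors summed to 37.2 and 38.2 TPM in shCon and to 95.7 and 89.7 in shUBXN1. SERPINF1, which does not inhibit proteases, made up the larger share, and without it the sums were 15.3 and 16.2 TPM against 45.6 and 43.4. The 2 groups did not overlap in any of the 4 sums.

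Among the carriers, ALB and TF fell by more than 2-fold, AGT rose, and AFP values did not pass the test. Of the 9 carriers past the filter in both groups, 5 fell (55.6%, against 29% of all such genes) and 1 rose (11.1%, against 26.3%), with a median log2 fold change of -0.45. TTR, lower in shUBXN1, and HPX and VTN, higher, passed it through 1 group alone, and the median of all 12 tested was -0.41. ALB (albumin, the main protein of plasma; chromosome 4, 73397114 to 73421482, plus strand, GRCh38 with GENCODE v44) had 18.0 and 17.2 CPM in shCon and 4.20 and 4.78 CPM in shUBXN1. Both knockdown libraries lay below both controls, and ALB was 3.91-fold lower (log2 fold change -1.97, SE 0.144, adjusted p = 5.49e-08, edgeR). AFP, the fetal albumin relative used as an HCC serum marker, starts 9.66 kb downstream of ALB on the same strand. Its CPM was 5.89 and 5.49 in shCon and 5.37 and 3.93 in shUBXN1, with a log2 fold change of -0.29 (SE 0.213, adjusted p = 0.266, edgeR). The shUBXN1 libraries differed more from each other than the nearer one did from shCon. The AFP to ALB ratio in TPM was 0.391 and 0.382 in shCon and 1.53 and 0.981 in shUBXN1, without overlap.

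TF (transferrin, the iron carrier; chromosome 3, 133746040 to 133796641, plus strand) had 103 and 92.4 CPM in shCon and 25.6 and 24.4 CPM in shUBXN1, a 3.90-fold lower level (SE of the log2 fold change 0.0850, adjusted p = 4.30e-10, edgeR). The replicates were close together and the groups far apart. The file gives TF a length of 20166 bases, so its TPM, 9.71 ± 0.942 (SD, n = 2) in shCon and 2.60 ± 0.225 in shUBXN1, is low for its counts. TTR (transthyretin, which carries thyroxine and retinol-binding protein; chromosome 18, 31557009 to 31598833, plus strand) had 38 and 34 counts in shCon and 5 and 3 in shUBXN1. The level was 8.43-fold lower on these few counts (log2 fold change -3.08, SE 0.545), and no test is read from it, since only the shCon libraries passed the filter. RBP4, the retinol-binding protein that travels with transthyretin, had 17.3 and 17.6 CPM in shCon and 10.2 and 10.9 CPM in shUBXN1. RBP4 fell by less than 2-fold, by 0.72 on the log2 scale (SE 0.119, adjusted p = 1.36e-04, edgeR), with no overlap.

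CP (ceruloplasmin, the copper-carrying ferroxidase; chromosome 3, 149162410 to 149221829, minus strand) had 352 and 295 CPM in shCon and 272 and 203 CPM in shUBXN1. In CPM, CP was lower in both knockdown libraries but varied within each group. In TPM the groups overlapped, with 131 in shCon replicate 2 and 132 in shUBXN1 replicate 1. The log2 fold change was -0.45 (SE 0.117, adjusted p = 0.00488, edgeR). The call was lost in DESeq2 (adjusted p = 0.116) and with total count scaling (adjusted p = 0.0697), as well as in limma on log2(TPM + 1) and log2(TPM + 0.1) (adjusted p = 0.111 and 0.107). Leaving out shUBXN1 replicate 2 gave -0.27 and leaving out shUBXN1 replicate 1 gave -0.68, both still past the test. Without knowledge of strand, reads of CP cannot be told from those of HPS3, whose antisense exons overlap 20.1% of CP exon bases. AMBP, the precursor of alpha-1-microglobulin and bikunin, had 18.0 and 17.8 CPM in shCon and 13.3 and 14.5 CPM in shUBXN1. Its fall of 0.37 on the log2 scale (SE 0.113, adjusted p = 0.0132, edgeR) was not called in DESeq2 (adjusted p = 0.0630) or without either shCon library (adjusted p = 0.0684 and 0.0518).

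AGT (angiotensinogen, the source of the angiotensin peptides; chromosome 1, 230690776 to 230745576, minus strand) had 10.4 and 11.9 CPM in shCon and 24.2 and 25.8 CPM in shUBXN1. Both knockdown libraries were above both controls, and AGT rose by 1.16 on the log2 scale (SE 0.115, adjusted p = 9.90e-07, edgeR). VTN (vitronectin, an adhesion protein that also binds plasminogen activator inhibitor; chromosome 17, 28367284 to 28373091, minus strand) had 3 and 9 counts in shCon and 57 and 62 in shUBXN1. It passed the filter through shUBXN1 alone, so its 10.1-fold higher level is a description (log2 fold change 3.33, SE 0.510). The value rests on few control counts, since it was 2.67 without shCon replicate 1 and 4.38 without shCon replicate 2. A second gene annotated on the same strand shares 17.3% of VTN exon bases.

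HPX (hemopexin, the heme scavenger; chromosome 11, 6431049 to 6442617, minus strand) had 2 and 4 counts in shCon and 20 and 10 in shUBXN1. It too passed the filter through shUBXN1 alone, with a log2 fold change of 2.32 (SE 0.704), and 1.83, 2.95 and 1.78 without shCon replicate 1, shCon replicate 2 and shUBXN1 replicate 1. AHSG, the mineral-binding fetuin A, and SERPINA6, the cortisol carrier, did not pass the test, with log2 fold changes of -0.71 (SE 0.387) and -0.18 (SE 0.288). SERPINA6 belongs to the serpin family but carries a hormone and inhibits no protease.

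**Figure D2:**
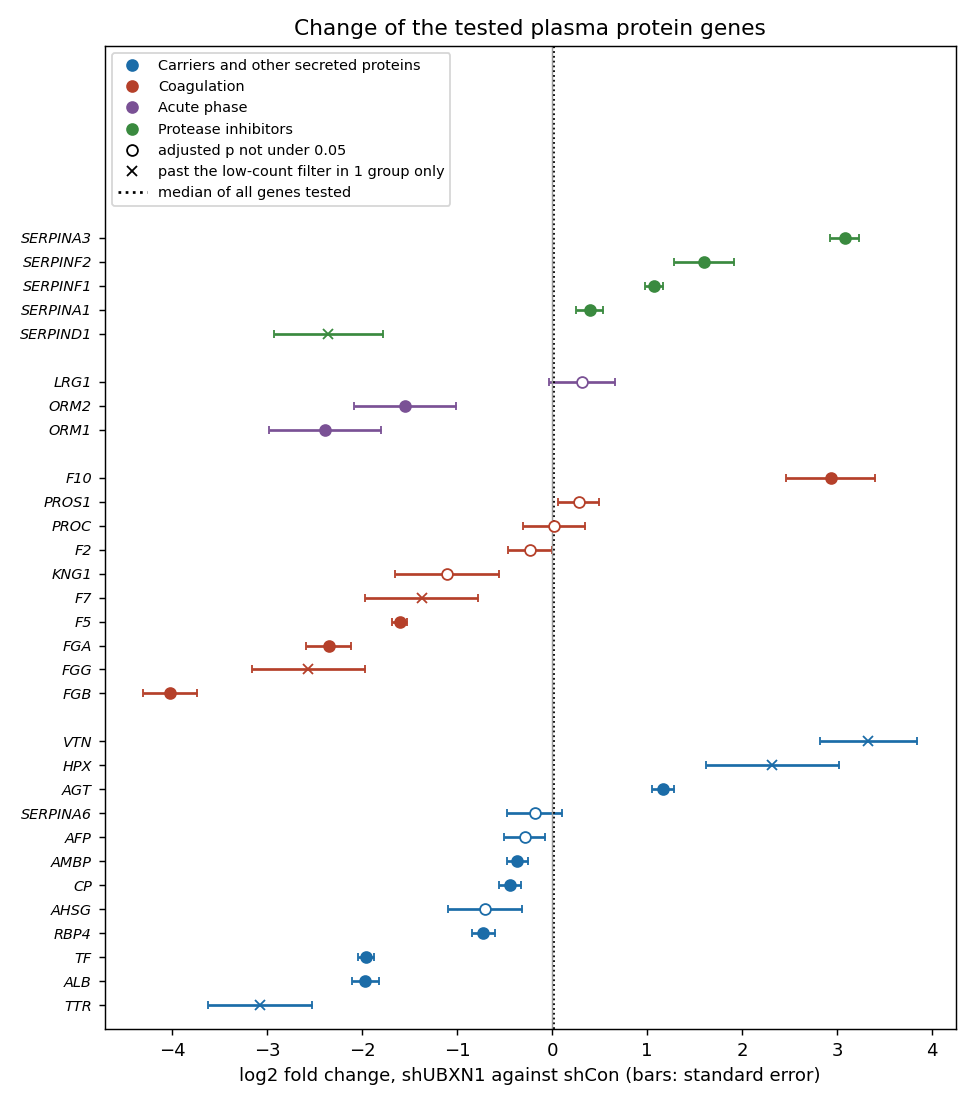
Log2 fold change (x axis) with its standard error for each tested member, grouped by role, with open points where the adjusted p was not under 0.05, crosses for the 6 members past the low-count filter in 1 group alone, and a dotted line at the median of all genes tested. Among the filled points, SERPINA3, SERPINF2, SERPINF1, SERPINA1, F10 and AGT lie to the right of 0, and FGB, FGA, F5, TF, ALB, ORM1 and ORM2 lie to the left at over 2-fold.

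In the coagulation group, FGB, FGA and F5 fell, F10 rose, and F2, PROC, PROS1 and KNG1 did not pass the adjusted test. These 8 had a library past the filter in both groups, though FGB, KNG1 and F10 had only 1 in the group with the lower values. Of the 8, 3 were lower (37.5%, against 29% of all such genes) and 1 higher (12.5%, against 26.3%), with a median log2 fold change of -0.67. FGG and F7 passed it through shCon alone. With them the median of the 10 was -1.24, which moved to -0.55 without shUBXN1 replicate 2 and to -1.72 without shUBXN1 replicate 1. FGB, FGA and FGG (the fibrinogen beta, alpha and gamma chains) span 49.96 kb of chromosome 4, from 154563011 to 154612967, with FGB on the plus strand and FGA and FGG on the minus strand. FGB had 9.71 and 9.96 CPM in shCon and 0.808 and 0.384 CPM in shUBXN1. It was 16.2-fold lower (log2 fold change -4.02, SE 0.283, adjusted p = 3.80e-08, edgeR), with -4.66 without shUBXN1 replicate 1 and -3.61 without shUBXN1 replicate 2. FGA had 6.94 and 8.39 CPM in shCon and 1.62 and 1.37 CPM in shUBXN1, a 5.11-fold fall (log2 fold change -2.35, SE 0.241, adjusted p = 1.44e-06, edgeR). The 4 values again fell into separate groups.

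FGG had the lowest TPM of the fibrinogen genes in the controls, with 32 and 37 counts in shCon and 2 and 9 in shUBXN1. Its level was 5.92-fold lower, given without a test since only the shCon libraries passed the filter (log2 fold change -2.57, SE 0.599), with -1.84 without shUBXN1 replicate 1 and -4.03 without shUBXN1 replicate 2. The ratios of the chains did not all separate the groups. The FGB to FGA ratio in TPM was 1.41 and 1.19 in shCon and 0.502 and 0.282 in shUBXN1, with no overlap, while the FGG to FGA ratio was 0.386 and 0.420 in shCon and 0.112 and 0.628 in shUBXN1, with the control values between those of the knockdown. Neither ratio was tested, and the FGB values in shUBXN1 rest on 20 and 9 counts.

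F5 (factor V, the cofactor of factor Xa; chromosome 1, 169511951 to 169586588, minus strand) had 79.5 and 77.7 CPM in shCon and 26.6 and 25.0 CPM in shUBXN1. The replicates differed little, and F5 was 3.04-fold lower (log2 fold change -1.61, SE 0.0799, adjusted p = 1.54e-09, edgeR). F10 (factor X, the protease that factor V assists; chromosome 13, 113122799 to 113149529, plus strand) had 13 and 4 counts in shCon and 66 and 59 in shUBXN1. It was 7.63-fold higher (log2 fold change 2.93, SE 0.467, adjusted p = 9.88e-05, edgeR), with 3.89 without shCon replicate 1 and 2.38 without shCon replicate 2. Only 1 shCon library was above the low-count cutoff, so F10 met the filter through shUBXN1. F7 (factor VII, which starts clotting with tissue factor; chromosome 13, 113105788 to 113120685, plus strand) ends 2.11 kb before F10 begins and is on the same strand. It had 16 and 14 counts in the controls and 7 and 4 after knockdown, with a log2 fold change of -1.37 (SE 0.595). F7 passed the filter through shCon alone and no test is read from it, although it is counted among the 11 of the 2-fold rule. These neighbours had fold changes of opposite sign, but each met the filter through its higher group. The contrast between them is therefore a description only.

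F2 (prothrombin; chromosome 11, 46719196 to 46739506, plus strand) had 4.01 and 4.77 CPM in shCon and 3.48 and 3.97 CPM in shUBXN1, with a log2 fold change of -0.24 (SE 0.229, adjusted p = 0.404, edgeR). PROC and PROS1, the anticoagulant proteins C and S, had log2 fold changes of 0.02 (SE 0.327) and 0.28 (SE 0.216), with overlapping groups for PROC. KNG1, the kininogen precursor of bradykinin, had 24 and 23 counts in shCon and 16 and 5 in shUBXN1. Its log2 fold change of -1.11 (SE 0.550, adjusted p = 0.102, edgeR) passed the test without shUBXN1 replicate 1 (-2.11, adjusted p = 0.0313, edgeR) and was -0.55 without shUBXN1 replicate 2 (adjusted p = 0.488, edgeR), so its size rested on single libraries.

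The 7 genes listed here as acute phase were mostly near or below detection. They do not stand for all acute-phase genes, since each member was placed in 1 role only. SERPINA3, which also rises in the acute phase, is listed with the inhibitors and was higher in shUBXN1. ORM1 and ORM2, the orosomucoids, fell, LRG1 did not pass the test, and HP, SAA1, SAA2 and CRP were too low to test. The 2 that fell were 66.7% of the 3 tested, against 29% of all genes past the filter in both groups. They are close copies that met the filter through shCon, so this share is not read as a result. ORM1 (chromosome 9, 114323098 to 114326479) had 40.25 and 42.44 expected counts in shCon and 12.66 and 2 in shUBXN1. ORM2, 3.39 kb further on the same strand (114329869 to 114333251), had 24.75 and 20.56 in shCon and 10.34 and 5 in shUBXN1. Both were lowest in shUBXN1 replicate 2 and neither overlapped between groups. Each had only 1 shUBXN1 library above the low-count cutoff, so both met the filter through shCon.

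ORM1 had a log2 fold change of -2.39 (SE 0.587, adjusted p = 0.00314, edgeR), with -4.19 without shUBXN1 replicate 1 and -1.65 without shUBXN1 replicate 2. ORM2 had -1.55 (SE 0.537, adjusted p = 0.0240, edgeR), a call lost in DESeq2 (adjusted p = 0.119) and without shCon replicate 1, shCon replicate 2 or shUBXN1 replicate 2 (adjusted p = 0.181, 0.131 and 0.166). The canonical transcripts are 95.9% identical, with an identical run of 242 bases, so the split of reads between the copies is uncertain. ORM1 took 61.9% and 67.4% of the summed counts in shCon and 55.0% and 28.6% in shUBXN1. LRG1, a leucine-rich glycoprotein induced in inflammation, had 1.35 and 1.79 CPM in shCon and 2.14 and 1.77 CPM in shUBXN1, overlapping, with a log2 fold change of 0.32 (SE 0.346, adjusted p = 0.462, edgeR).

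SAA1 and SAA2, the serum amyloid A genes, had at most 2 counts in any library. SAA1 was listed with 2 counts in shCon replicate 1 and 0 in the other libraries, and SAA2 with 2 in shUBXN1 replicate 2 and 0 in the others. Their transcripts are 95.4% identical. Neither could be compared at this depth.

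In the serpin group, SERPINA3, SERPINF1, SERPINF2 and SERPINA1 rose. These were the 4 members past the filter in both groups (100% higher, against 26.3% of all such genes), with a median log2 fold change of 1.34. SERPIND1, past it through shCon alone, was lower, and the median of the 5 tested was 1.07. SERPINA3 (alpha-1-antichymotrypsin, an inhibitor of cathepsin G that also rises in the acute phase; chromosome 14, 94612384 to 94624055, plus strand) had 2.48 and 2.20 CPM in shCon and 19.7 and 20.1 CPM in shUBXN1. The replicates were close to each other, and SERPINA3 was 8.45-fold higher (log2 fold change 3.08, SE 0.154, adjusted p = 1.61e-09, edgeR). An overlapping gene on the same strand shares 31.7% of SERPINA3 exon bases and had 0 to 0.377 CPM.

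SERPINA1 (alpha-1-antitrypsin, the elastase inhibitor; chromosome 14, 94376747 to 94390693, minus strand) lies 222 kb away and had 8.21 and 9.02 CPM in shCon and 10.9 and 11.8 CPM in shUBXN1. Its rise of 0.40 on the log2 scale (SE 0.142, adjusted p = 0.0271, edgeR) was lost in DESeq2 (adjusted p = 0.113) and without shCon replicate 1, shCon replicate 2 or shUBXN1 replicate 2 (adjusted p = 0.173, 0.0633 and 0.0856). The SERPINA3 to SERPINA1 ratio in TPM went from 0.311 and 0.251 in shCon to 1.86 and 1.76 in shUBXN1. SERPINA3 was therefore the lower of these inhibitor genes per length in both controls and the higher in both knockdown libraries.

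SERPINF1 (PEDF, a serpin without inhibitor activity that restrains vessel growth; chromosome 17, 1762029 to 1777565, plus strand) had 15.5 and 16.0 CPM in shCon and 33.3 and 33.1 CPM in shUBXN1. It was 2.10-fold higher (log2 fold change 1.07, SE 0.0961, adjusted p = 3.95e-07, edgeR). SERPINF2 (alpha-2-antiplasmin, which blocks plasmin; chromosome 17, 1742836 to 1755265, plus strand) ends 6.76 kb before it and had 1.05 and 1.32 CPM in shCon and 3.80 and 3.37 CPM in shUBXN1. SERPINF2 was 3.03-fold higher (SE of the log2 fold change 0.313, adjusted p = 5.75e-04, edgeR), and both genes were apart between groups. SERPIND1 (heparin cofactor II, a thrombin inhibitor; chromosome 22, 20774113 to 20787720, plus strand) had 25 and 34 counts in shCon and 8 and 3 in shUBXN1. Its log2 fold change was -2.36 (SE 0.576), given without a test. It was -3.16 and -1.88 without shUBXN1 replicates 1 and 2, and -2.64 and -2.04 without shCon replicates 1 and 2.

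**Figure D3:**
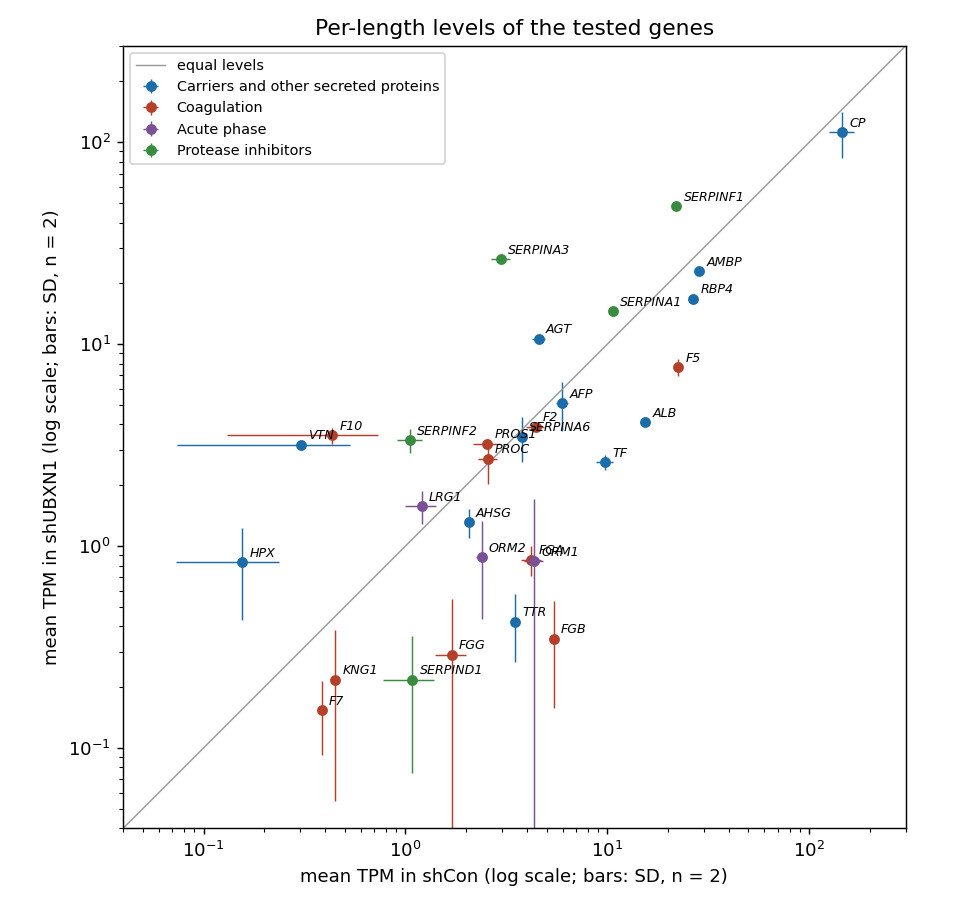
Mean TPM in shCon (x axis) against mean TPM in shUBXN1 (y axis), both on log axes with SD bars (n = 2), coloured by role, with a line at equal levels; bars that reach 0 or below run to the axis edge. CP stays highest in both groups, while SERPINA3 and SERPINF1 lie above the line and ALB, TF, F5 and FGB below it.

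Per length, the order of levels shifted within the group of genes. The order rests on the deposited lengths, and the place of TF in it is uncertain. With 20166 bases in the file, TF stood at 9.71 TPM in shCon, although its mean CPM there was 97.6, against 17.9 for AMBP. In shCon, CP led at 146 ± 21.2 TPM (SD, n = 2), followed by AMBP at 28.5 ± 0.881, RBP4 at 26.6 ± 0.165, F5 at 22.4 ± 0.843, SERPINF1 at 22.0 ± 0.0839 and ALB at 15.4 ± 0.830. F5 and SERPINF1 did not differ beyond their spread. In shUBXN1, CP led at 112 ± 28.7 TPM, followed by SERPINF1 at 48.2 ± 2.73, SERPINA3 at 26.4 ± 0.979, AMBP at 22.999 ± 0.132, RBP4 at 16.8 ± 0.130, SERPINA1 at 14.6 ± 0.0327 and AGT at 10.7 ± 0.0803. ALB stood at 4.10 ± 0.160 TPM there, below AFP at 5.11 ± 1.38, a difference within the spread of AFP. SERPINA3 had been at 2.98 ± 0.314 TPM in shCon.

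Of the 14 members not tested, GC, F9, F11, F13B, CRP and SERPINC1 were listed at 0 in all 4 libraries. With SAA1 and SAA2, 8 had 3 counts or fewer in every library, where 3 counts corresponded to 0.113 to 0.128 CPM. SERPINC1 (antithrombin) and F9 (factor IX) are genes of mature hepatocytes, and at this depth their transcripts were not detectable in either group. FETUB, PLG, HRG, HP, A1BG and F12 had up to 10 counts. PLG, the plasmin precursor, had 0 and 0 counts in shCon and 6 and 1 in shUBXN1, and HRG, a histidine-rich plasma glycoprotein, had 4 and 3 in shCon and 0 and 0 in shUBXN1. HP, haptoglobin, had 6 and 1 in shCon and 1 and 0 in shUBXN1.

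**Figure D4:**
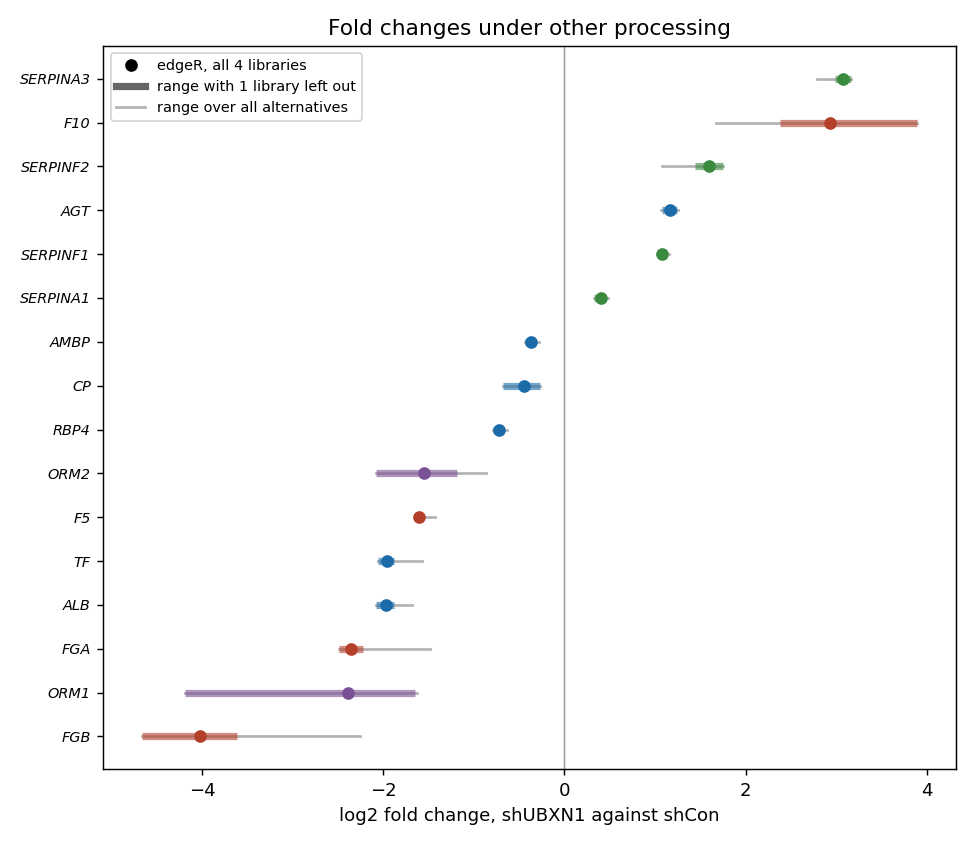
Log2 fold change (x axis) of the 16 members past the adjusted test with at least 1 library past the low-count filter in each group. Thick bars give the range when 1 library was left out, and thin bars the range over all alternatives. Among these is log2(TPM + 1), which shrinks low genes. SERPINA3, AGT, SERPINF1, RBP4, F5, TF and ALB have short thick bars, and ORM1, F10, FGB and ORM2 long ones.

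Among related genes, 6 of 23 other plasma protein genes passed the filter in both groups, and 3 fell and 2 rose (50% and 33.3%, against 29% and 26.3% of all such genes). HABP2, a plasma serine protease, fell from 8.06 and 7.62 CPM in shCon to 0.647 and 0.641 CPM in shUBXN1 (log2 fold change -3.60, SE 0.266, adjusted p = 6.20e-08, edgeR), with 10.2% of its exon bases under an antisense gene. AZGP1, zinc-alpha-2-glycoprotein, fell from 12.5 and 15.1 CPM to 4.97 and 4.10 CPM (log2 fold change -1.60, SE 0.167). MST1, macrophage-stimulating protein, rose from 3.88 and 2.51 CPM to 15.1 and 12.7 CPM (log2 fold change 2.10, SE 0.198). All 3 passed the adjusted test, with no overlap between groups.

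A list of 14 clotting genes held both genes that support clotting, such as vitamin K enzymes, and genes that restrain it, such as TFPI, THBD and PROCR. Of the 14, 13 were tested, and 5 fell and 3 rose (38.5% and 23.1%). These shares lie near the 28.2% and 28% of all genes tested. FURIN, a protease that cuts proproteins, fell from 73.4 and 79.1 CPM to 29.8 and 29.9 CPM (log2 fold change -1.35, SE 0.0801). VKORC1L1, a vitamin K epoxide reductase, fell from 66.7 and 66.4 CPM to 32.9 and 29.4 CPM (log2 fold change -1.09, SE 0.0827). F3, tissue factor, rose from 14.2 and 13.025 CPM to 22.4 and 23.5 CPM (log2 fold change 0.75, SE 0.109). Each passed the adjusted test.

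Among 9 genes of interleukin-6 signalling and liver factor control, 6 rose and 3 fell (66.7% and 33.3%, against 28% and 28.2% of all genes tested). STAT3, which carries the interleukin-6 signal, rose from 103 and 97.9 CPM to 236 and 246 CPM (log2 fold change 1.26, SE 0.0743, adjusted p = 6.79e-09, edgeR). SOCS3, a feedback inhibitor of that signal, rose from 14.3 and 15.4 CPM to 35.6 and 42.4 CPM (log2 fold change 1.39, SE 0.108). CEBPA, a C/EBP factor, fell from 123 and 128 CPM to 36.6 and 46.0 CPM (log2 fold change -1.60, SE 0.0959), and antisense genes overlap 43.9% of its exon bases. The other C/EBP factors of the list went the opposite way, CEBPB rising by 0.53 (adjusted p = 4.01e-05, edgeR) and CEBPD by 1.04 (adjusted p = 3.28e-06, edgeR) on the log2 scale. HNF4A fell by 0.30 and IL6R, an interleukin-6 receptor chain, fell by 0.29. IL6ST and JAK1, which pass on the interleukin-6 signal, rose by 0.64 and 0.29. Whether these factors have a part in the plasma protein values was not tested.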

How the data were processed

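The authors deposited 1 table of expected counts per gene (not normalized, up to 2 decimals) and a gene length for 4 libraries of MHCC97H cells. The submitters' processing notes name HISAT2 2.0.4 and StringTie 1.3.0 and the build GRCh37, whereas the paper names GRCh38 alignment. The labels and the methods also name different library kits. The counting tool, annotation release and use of strand are not given in the sources used here, so close copies and overlapping genes are uncertain. Symbols matched 61369 of 61541 identifiers (99.7%).

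Counts were rounded, filtered with filterByExpr (minimum count 10, a cutoff of 0.419 CPM), scaled by TMM and fitted over all 4 libraries by edgeR 4.0.16 (R 4.3.3), without a block, with its quasi-likelihood functions glmQLFit and glmQLFTest. The biological coefficient of variation was 0.0711. TPM was computed with the deposited length, which equals the Ensembl canonical transcript for 71.7% of expressed genes, so levels per length are approximate. Coordinates are GRCh38 with GENCODE v44. Replicates were not copies of one library (chi-square per gene 3.83 in shCon, 8.42 in shUBXN1). Values in every library were given for members past the adjusted test and 2-fold, the 12 with the highest mean TPM, the close copies and the fibrinogen genes, and the 3 genes with the smallest p were named from each related list. LRG1, F7, KNG1, PLG, HRG, HP and the other genes of interleukin-6 signalling were shown in addition, chosen after their values were seen. DESeq2 1.42.0, limma 3.58.1, other scalings, filters and scales, the replicate block and leaving out each library were tried as alternatives. Removal of a trend on GC content, and counts over members with a library above the cutoff in both groups, were chosen after seeing the data. One gene of a related list is not reported here. Members and lists were chosen with earlier results of these data known. The script was tested on simulated data.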

Additional observations from a re-analysis of the deposited data

How the results depend on the processing

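The counts of members past the adjusted test were 8 higher and 13 lower, and 7 and 11 with the 2-fold rule. With at least 10 counts in every library, which left 19 members, they were 5, 7, 4 and 4. Among all 14974 genes tested with that filter, 4449 were higher and 4446 lower by adjusted p, and 1321 and 746 by the 2-fold rule. The medians with that filter were -0.21 for coagulation, 0.35 for acute phase (reversed, LRG1 alone) and 1.36 for inhibitors. The carrier median was -0.32 with total count scaling, which shifted the median of all genes to 0.10, and -0.33 with no filter on low counts. The coagulation median was -0.26 on log2(TPM + 1) and -0.92 on log2(TPM + 0.1). The acute-phase median was -0.87 on log2(TPM + 1), -1.97 with no filter and -0.86 with close copies summed. Leaving out 1 library at a time gave medians of -0.61 to -0.33 for carriers and -1.72 to -0.55 for coagulation. The same fits gave -2.08 to -1.19 for acute phase and 1.05 to 1.08 for inhibitors. In these fits the lone library was assumed to vary like the others. PROC, at 0.02, ranged from -0.21 to 0.20 when 1 library was left out, below 0 without shCon replicate 1 or shUBXN1 replicate 1, and was at -0.087 with the GC trend removed. Over members past the low-count filter in both groups, 7 were lower by the 2-fold rule, and the medians were -0.67 for coagulation and 1.34 for inhibitors. With the replicate block the counts were 8, 13, 7 and 11 and the coagulation median -1.28. Among all 16863 genes tested, that fit had 5000 higher and 5023 lower by adjusted p, and 2011 and 1026 by the 2-fold rule. The deviations of same-numbered libraries correlated at 0.0639, so the numbers were not taken as pairs. Low counts limit HPX, VTN, F10, TTR, FGG, ORM1, ORM2 and SERPIND1, and for these the size of the change rests on a few reads.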
